A study of Mus musculus with 4 samples.

Results

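Ileal bile acid handling was followed through 5 genes, taken by name from the 29011 genes of the deposited table: Slc10a2, Fabp6, Slc51a, Slc51b and Fgf15. RNA was taken from whole small intestine at postnatal day 8, with 2 control and 2 Lats1/2 KO samples. Per the design text the controls carried floxed alleles of Lats1 and Lats2 and no Cre, whereas their genotype label reads VilCre-; Lats1/2-/-, which differs from the design text. The Lats1/2 KO samples were labelled VilCre+; Lats1/2-/-. Villin-Cre acts in intestinal epithelium, so muscle, stroma and blood in the same tissue are not its targets. No cell type or gut segment was separated, and for every gene below fewer cells of a type and less RNA per cell cannot be told apart.

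Bile acids reaching the ileum are taken up across the brush border by SLC10A2, carried through the enterocyte by FABP6 and released into portal blood by the paired subunits SLC51A and SLC51B. Inside the cell they activate the nuclear receptor FXR (Nr1h4), which induces Fgf15 in mice. FGF15 travels to the liver and, through FGFR4 and its partner beta-Klotho (Klb), restrains bile acid synthesis. In rats, Slc10a2 expression is low during suckling and rises toward weaning.

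Depth ranged from 25135964 to 32361940 reads per library. Lats1 had normalized counts of 2316 and 2560 in the controls and 751 and 661 in the Lats1/2 KO libraries, and Lats2 had 273, 287, 295 and 254 in the same order. Lats1 was called lower (log2 change -1.79, adjusted p = 0.00055, limma), whereas Lats2 was not (-0.03, adjusted p = 0.868), so the Lats2 counts do not bear out the label. Which exons are deleted is not given in the sources used here, and knockout below means a library labelled Lats1/2 KO. Fits by limma on log2(normalized count + 1) called 27.5% of 16415 tested genes at an adjusted p under 0.05, 15.2% being higher and 12.3% lower after knockout. In 68.3% of tested genes the libraries of the groups did not overlap. The median log2 change of all tested genes was -0.0015. Of the 5 genes, 3 passed the filter of 10 normalized counts in 2 libraries, and Fgf15 did so only through the Lats1/2 KO libraries, so it had to differ. Epithelial markers Epcam, Cdh1 and Vil1 had log2 changes of -0.04, 0.13 and 0.06 with adjusted p of 0.759, 0.309 and 0.637 by limma. The 10 epithelial markers together summed to 209245 to 226025 normalized counts in the controls and 280123 to 280994 in the knockouts, with 3 keratins called higher and 0 markers lower. The part of these sums in the results was not tested.

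The uptake step was close to undetected in every library. Slc10a2, the apical sodium-dependent bile acid transporter (ENSMUSG00000023073, GRCm38 chromosome 8, 5083219 to 5105351, minus strand), had 6 and 4 reads in the controls, against 0 and 3 in the Lats1/2 KO libraries. Those reads amount to 0.216 and 0.159 RPM (reads scaled to the library total) in the controls and to 0 and 0.0927 RPM in the knockouts. Over both libraries of a group the ratio of Lats1/2 KO to control was 0.252, with an exact 95% interval of 0.0447 to 0.981 that covers counting error only. The knockout reads all came from replicate 2. Without that library the ratio was 0, and without Lats1/2 KO replicate 1 it was 0.499.

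Fabp6, the ileal bile acid binding protein of the enterocyte cytosol (ENSMUSG00000020405, chromosome 11, 43596049 to 43601540, minus strand), had 0 and 1 reads in the controls and 1 and 3 in the knockouts. Its ratio of Lats1/2 KO to control was 3.37, with an exact 95% interval of 0.333 to 166. It was 1.60 without control replicate 1 and 1.70 without Lats1/2 KO replicate 2. A count of 0 in one library allows up to 3 reads, or 0.0927 to 0.119 RPM. A difference in Fabp6 was therefore not detectable at this depth. Both genes fell below the filter, and with no filter limma gave adjusted p of 0.228 for Slc10a2 and 0.487 for Fabp6. By these defining genes of mature ileal bile acid uptake, the ileal label of the gene group was not met in either group of samples.

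The exit step was well expressed, and its paired subunits moved in opposite directions. Slc51a, the alpha subunit (ENSMUSG00000035699, chromosome 16, 32474504 to 32487879, minus strand), had normalized counts of 5444 and 4909 in the controls and 8085 and 8020 in the Lats1/2 KO libraries. Every knockout library was above every control library. Its mean went from 5176 ± 378 (SD, n = 2) to 8052 ± 45.4 (SD, n = 2), a 1.56-fold rise. The log2 change of Slc51a was 0.64 ± 0.07 (SE; 95% interval 0.45 to 0.82; adjusted p = 0.00378, limma).

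Slc51b, the beta subunit that the alpha subunit needs to reach the membrane (ENSMUSG00000053862, chromosome 9, 65412714 to 65422955, minus strand), had normalized counts of 1769 and 1644 in the controls. In the Lats1/2 KO libraries Slc51b had 1197 and 1241, both below the controls. The mean went from 1706 ± 88.7 to 1219 ± 30.7 (SD, n = 2 each), a 1.40-fold fall. Its log2 change was -0.48 ± 0.07 (SE; 95% interval -0.66 to -0.30; adjusted p = 0.00802, limma). The direction held without each library in turn, but leaving out Lats1/2 KO replicate 1 (adjusted p = 0.0645, limma) or replicate 2 (0.0518) ended the call.

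**Figure D1:**
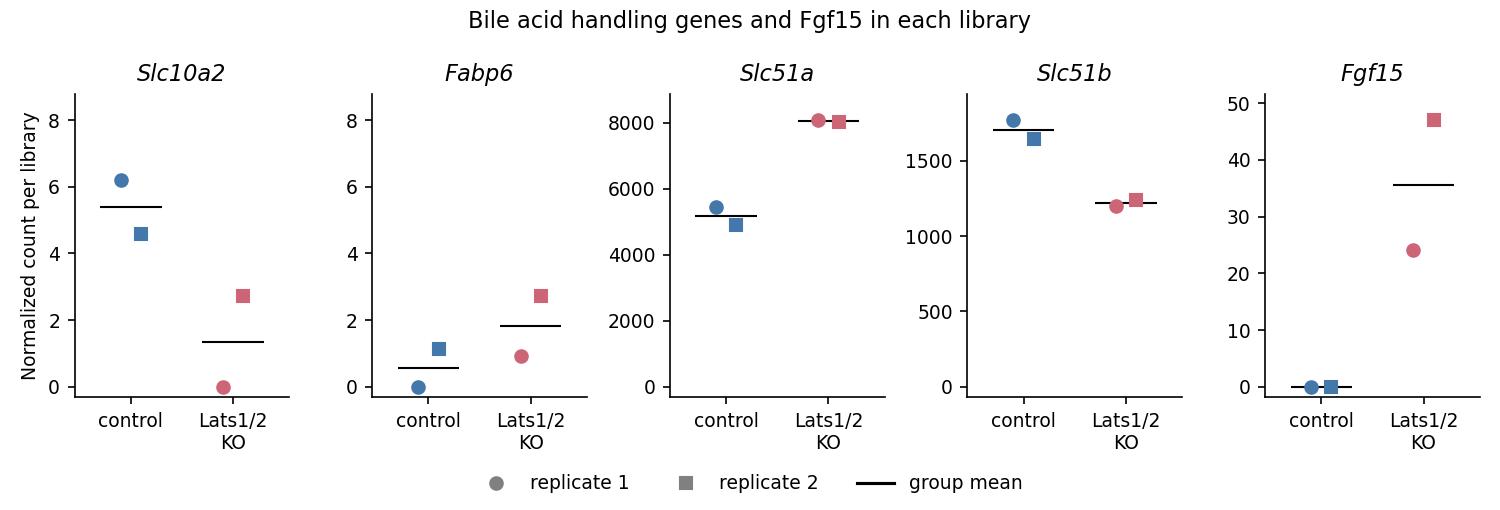
Normalized count of each gene in each library, on a linear axis of its own per gene; circles are replicate 1, squares replicate 2 and lines the group means. Slc51a rises and Slc51b falls in the Lats1/2 KO libraries, Fgf15 is at 0 in both controls, and Slc10a2 and Fabp6 stay at or below 6.21 normalized counts.

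The subunit ratio within a library does not depend on the scaling between libraries. Slc51a over Slc51b, as a ratio of normalized counts, was 3.08 and 2.99 in the controls and 6.75 and 6.46 in the Lats1/2 KO libraries. The ratio was thus 2.18-fold higher in the knockouts, a log2 difference of 1.12, and ranged from 1.09 to 1.16 when 1 library was left out. An exact two-sided permutation test over the 4 libraries gave p = 0.333, the smallest that 2 against 2 allows. Per kb of exon, Slc51b had the higher level in the controls, at 2407 ± 125 against 1619 ± 118 normalized counts per kb for Slc51a (SD, n = 2 each). In the knockouts this order was turned, with 2518 ± 14.2 per kb for Slc51a and 1719 ± 43.3 per kb for Slc51b (SD, n = 2 each). The per-kb ratio was 0.672 ± 0.0142 in the controls and 1.47 ± 0.0452 in the knockouts (SD, n = 2 each). Lengths were 3.198 kb for Slc51a and 0.709 kb for Slc51b, over all annotated exons, and isoforms were not separated.

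**Figure D2:**
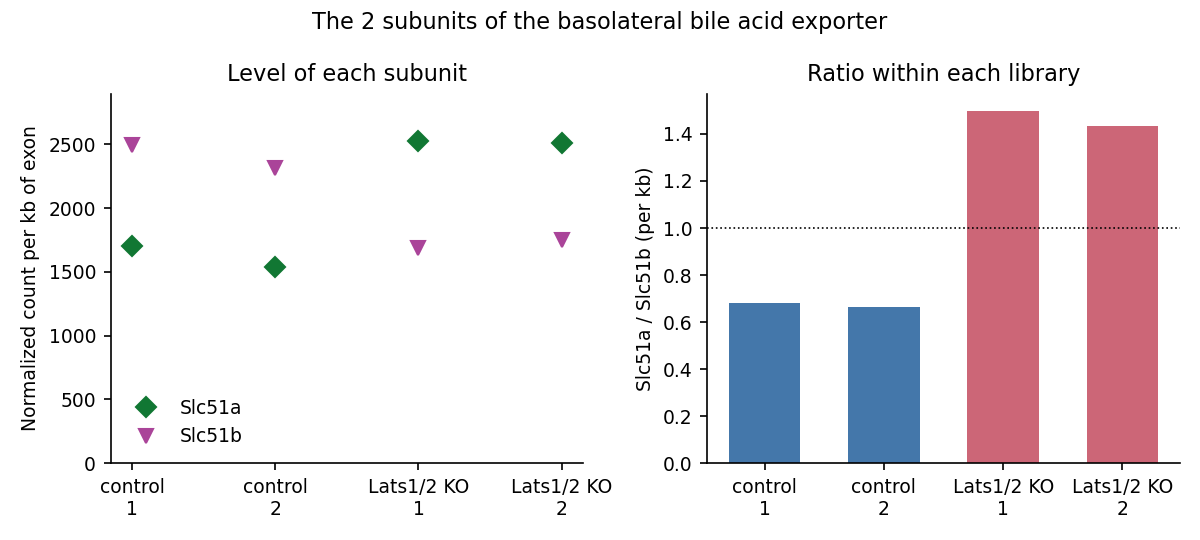
Left, normalized count per kb of exon for Slc51a (diamonds) and Slc51b (triangles) in each library; right, their per-kb ratio as bars from 0, with a dotted line at equal levels. Slc51b is above Slc51a in both controls and below it in both Lats1/2 KO libraries, with mean ratios of 0.672 against 1.47.

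Genes on the opposite strand overlap both subunits, and the strand setting of the counts is not given in the sources used here. Pcyt1a, an enzyme of phosphatidylcholine synthesis, shares 567 exon bases with Slc51a, or 17.7% of its exon length. Pcyt1a had normalized counts of 18964 in each control and 23833 and 24444 in the knockouts, a log2 change of 0.35 (adjusted p = 0.0200 by limma). It lost that call without either Lats1/2 KO library (adjusted p of 0.108 and 0.134, limma). Rasl12, a small GTPase-like gene, shares 91 bases with Slc51b, 12.8% of its exon length. It had normalized counts of 161 and 157 in the controls and 222 and 316 in the knockouts. Rasl12 was called higher (log2 change 0.73, adjusted p = 0.0414, limma), but not with no filter (0.0849, limma) or with limma-voom (0.0507). It also lost its call in some fits without 1 library, such as without Lats1/2 KO replicate 2 (log2 change 0.48). Over the alternatives its log2 change ran from 0.48 to 0.99. The part of these reads in the subunit counts was not tested.

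Promoters of Slc51a and Slc51b are shown because the subunits of 1 transporter moved apart. RefSeq sequences (build GRCm38.p6) were matched for 4 of the 5 genes, all but Fgf15. Printed bases lie upstream of both the RefSeq and the GENCODE start, which for Slc51b leaves 68 bases, since its GENCODE start is 182 bases upstream of the RefSeq start. Capitals mark the nuclear receptor half-site AGGTCA (or TGACCT on the other strand) and the AP-1 motif TGANTCA.
Slc51a, chr16:32487880-32488129, minus strand: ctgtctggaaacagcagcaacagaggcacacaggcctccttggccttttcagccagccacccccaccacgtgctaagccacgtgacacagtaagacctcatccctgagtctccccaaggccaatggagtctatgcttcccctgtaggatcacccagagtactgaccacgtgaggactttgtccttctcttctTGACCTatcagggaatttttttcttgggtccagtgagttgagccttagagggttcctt
Slc51b, chr9:65422956-65423023, minus strand: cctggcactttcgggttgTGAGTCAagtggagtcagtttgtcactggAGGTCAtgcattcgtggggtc

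Both strands of the 250 bases before each RefSeq start were searched. Slc51a held 1 half-site, 58 to 53 bases before its start, and Slc51b held 1 at 203 to 198 bases. A half-site was present in 14.0% of 32851 promoters of that length. The AP-1 motif was found in Slc51b at 232 to 226 bases and in Slc10a2 at 118 to 112 bases, and in 6.75% of all promoters. The TEAD core GGAATG occurred in Slc51b, 14 to 9 bases before the RefSeq start and outside the printed bases, and in 12.6% of promoters. Fabp6 had the TATA box motif TATAAA at 29 to 24 bases, on the reverse strand, as did 12.4% of promoters on either strand. The FXR inverted repeat, AGGTCA and TGACCT with any base between, was in 0 of these 4 promoters and in 2 of all promoters, and those of the GATA motif AGATAA in 0 of the 4 and 9.99% of all. These matches are descriptions of the letters and do not mark bound sites.

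Fgf15 was not detected in controls and was present at a low level in both Lats1/2 KO libraries. This hormone of the ileal enterocyte (ENSMUSG00000031073, chromosome 7, 144896531 to 144900953, plus strand) had 0 reads in each control library. The Lats1/2 KO libraries had 26 and 52 Fgf15 reads, with exact Poisson 95% intervals of 17.0 to 38.1 and 38.8 to 68.2 that cover counting error only. As normalized counts these were 24.1 and 47.0, or 0.852 and 1.61 RPM. Both knockout libraries were above both controls. The intervals are in raw reads of libraries that differ in depth, so they do not compare the knockout libraries with each other.

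With 3 reads put in place of the 0 reads over both control libraries, Fgf15 was 21.9-fold higher in the Lats1/2 KO samples. That ratio leaves out the counting error of the knockout reads and the spread between libraries, so it is no lower bound. Limma gave a log2 change of 5.12 ± 0.50 (SE) and an adjusted p of 0.00227. Because Fgf15 passed the filter only through the Lats1/2 KO libraries, this fit is given as a description. The direction was the same in all 12 alternatives in which Fgf15 was tested. The fitted log2 change ran from 2.96 to 8.17 with the pseudocount and the tool, because the controls were at 0, and is no bound. In the authors' deposited table its adjusted p is 5.87e-05. Of 2517 genes with 0 reads in both controls, 8, or 0.318%, had at least 20 reads in each knockout library, Fgf15 among them. Per kb, its knockout level of 11.6 ± 5.30 normalized counts (SD, n = 2) was far under the 1719 of Slc51b.

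Antisense genes Gm26793 and Gm39119 overlap Fgf15 over 761 and 26 exon bases. Gm26793 had 0, 4, 2 and 7 reads, and Gm39119 had 1, 0, 0 and 2, in control replicates 1 and 2 and Lats1/2 KO replicates 1 and 2. Both stayed below the Fgf15 counts of the knockout libraries.

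The genes that sense bile acids and receive FGF15 were more often called lower than higher. Of 13, 12 were tested, 1 (8.33%) was higher and 5 (41.7%) were lower, against 15.2% and 12.3% of all tested genes. Their median log2 change was -0.29, against -0.0015 over all tested genes. That median was -0.17 without control replicate 1 and -0.41 without control replicate 2. Nr0b2, the corepressor SHP and a classic FXR target, had normalized counts of 608 and 837 in the controls and 95.3 and 134 in the Lats1/2 KO libraries. It fell by 2.65 ± 0.23 (SE) on the log2 scale (adjusted p = 0.00163, limma), so Nr0b2 and Fgf15, both FXR targets, moved in opposite directions. Nr1h4 itself had normalized counts of 3787 and 3608 in the controls and 3112 and 3013 in the knockouts, a log2 change of -0.27 ± 0.06 (SE). Its call (adjusted p = 0.0299, limma) was lost without control replicate 1 (0.0655), without Lats1/2 KO replicate 1 (0.126), without replicate 2 (0.175) and with no filter (0.0622).

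Malrd1, which in mice promotes Fgf15 production, had 483 and 581 normalized counts in the controls and 138 and 169 in the knockouts, a log2 change of -1.79 ± 0.16 (SE). Vdr, the vitamin D receptor that also binds the bile acid lithocholate, had a log2 change of -2.04 ± 0.15 (SE). For the receptors of FGF15, Klb fell and Fgfr4 rose. Klb had 191 and 152 normalized counts in the controls and 74.9 and 61.4 in the knockouts (adjusted p = 0.00828, limma). Fgfr4 had 145 and 185 in the controls and 476 and 507 in the knockouts, a 2.99-fold rise (adjusted p = 0.00209, limma). FXR's partner Rxra, Nr5a2, the pregnane receptor Nr1i2, Nr1i3, Ppara and the glucocorticoid receptor Nr3c1 had log2 changes from -0.43 to 0.06 and were not called. Gpbar1, the bile acid receptor of the cell surface, had normalized counts of 1.14 to 8.33 and was not tested.

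In a list of further intestinal FXR targets, which counts Nr0b2 a second time, the called genes were lower. Of Nr0b2, Ang, Nos2, Il18 and Car12, all tested, 0 rose and 3 (60.0%) fell, against 15.2% and 12.3% of all tested genes. Their median log2 change was -0.77, and -1.32 with the filter at 50 normalized counts. Nos2, the inducible nitric oxide synthase, had 11.4 and 8.00 normalized counts in the controls and 32.4 and 19.0 in the knockouts, groups that do not overlap, but was not called (log2 change 1.29, adjusted p = 0.0624, limma). Car12, a membrane carbonic anhydrase, had 1059 and 952 normalized counts in the controls and 307 and 244 in the knockouts, a 3.66-fold fall (adjusted p = 0.00113, limma). Ang, an angiogenin, fell by 0.77 on the log2 scale (adjusted p = 0.0118, limma), and was not called once Lats1/2 KO replicate 1 was left out (0.0547). Il18, an interleukin, had 1709 and 437 normalized counts in the controls and 2230 and 1521 in the knockouts, groups that overlap, and without control replicate 1 its log2 change of 2.07 was called (adjusted p = 0.00395, limma).

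Among other bile acid and sterol transporters the largest change was in Abcb11, the bile salt export pump of the liver. Abcb11 had normalized counts of 3108 and 3428 in the controls and 299.8 and 657 in the Lats1/2 KO libraries, and all knockout values were below the controls. It fell 7.34-fold, a log2 change of -2.88 ± 0.35 (SE) with an adjusted p of 0.00427 by limma. Hepatocyte markers beside it were low: Alb had 1.85 to 14.9 and Ahsg 0 to 4.14 normalized counts over the 4 libraries. The 5 hepatocyte markers in the table summed to 6874 and 9322 in the controls and 2005 and 2476 in the knockouts, almost all of it Ttr, a plasma carrier that other tissues also make, which was called lower (log2 change -1.87). Their part in the Abcb11 fall was not tested.

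Of 9 transporters, 8 were tested, 2 rose and 3 fell, against 15.2% and 12.3% of all tested genes. Their median log2 change was 0.12, and -0.18 without control replicate 1. Abcb1a, a multidrug exporter of the apical membrane, rose 2.89-fold from 569 and 874 to 2192 and 1902 normalized counts (adjusted p = 0.00595, limma). Abcc4, a basolateral exporter that accepts bile acids, rose by 0.76 on the log2 scale, and lost its call without control replicate 1 (adjusted p = 0.0553, limma) and without Lats1/2 KO replicate 2 (0.103). Abcc3, also basolateral, had a log2 change of 0.58 and Abcc2, apical, of 0.49, and neither was called (adjusted p of 0.0635 and 0.124, limma). Abcc3 was called higher with DESeq2 (adjusted p = 0.0289) and without control replicate 1 (0.00901, limma), and Abcc2 without control replicate 2 (0.00246, limma). Abcg8, which pairs with Abcg5 to export sterols, and Slco2b1, an organic anion carrier, were called lower at log2 changes of -0.72 and -0.70. Each lost its call without either Lats1/2 KO library, with adjusted p of 0.128 and 0.126 without replicate 1 and 2 for Abcg8 and 0.0710 and 0.0855 for Slco2b1 by limma. Slco2b1 also lost it without control replicate 2 (0.0637), and Abcg8 with no filter (0.0793). Counted without Lats1/2 KO replicate 1 or without replicate 2, 1 transporter fell, and without replicate 2, 1 rose.

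Enzymes that make or conjugate bile acids act mostly in liver. Amacr, a racemase of the side-chain pathway, had the highest values of the list, at 649 and 672 normalized counts in the controls and 573 and 547 in the knockouts, and was not called (adjusted p = 0.0837, limma). Of 8 with a row, 8 were tested, 2 rose and 1 fell, against 15.2% and 12.3% of all tested genes. Their median log2 change was 0.38, and -0.24 with the filter at 50 normalized counts. Baat, which joins bile acids to taurine or glycine, had 2.07 and 2.29 normalized counts in the controls and 35.2 and 28.9 in the Lats1/2 KO libraries. Its log2 change was 3.37 ± 0.35 (SE; adjusted p = 0.00285, limma). Baat passed the filter only through the knockout libraries, so it had to differ, and its fit is given as a description. It is 1 of the 2 counted as risen and enters the median of 0.38. With the filter at 50 normalized counts, which leaves out Baat among others, 1 rose. Acox2, a peroxisomal oxidase of side-chain shortening, had a log2 change of 1.14 (adjusted p = 0.0204, limma), lost without control replicate 1 (0.0508) or Lats1/2 KO replicate 2 (0.102). Cyp27a1, a sterol hydroxylase, had a log2 change of -0.89 (adjusted p = 0.0314, limma), lost with no filter, DESeq2 and the removal of any library but Lats1/2 KO replicate 1 (0.0527 to 0.119).

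**Figure D3:**
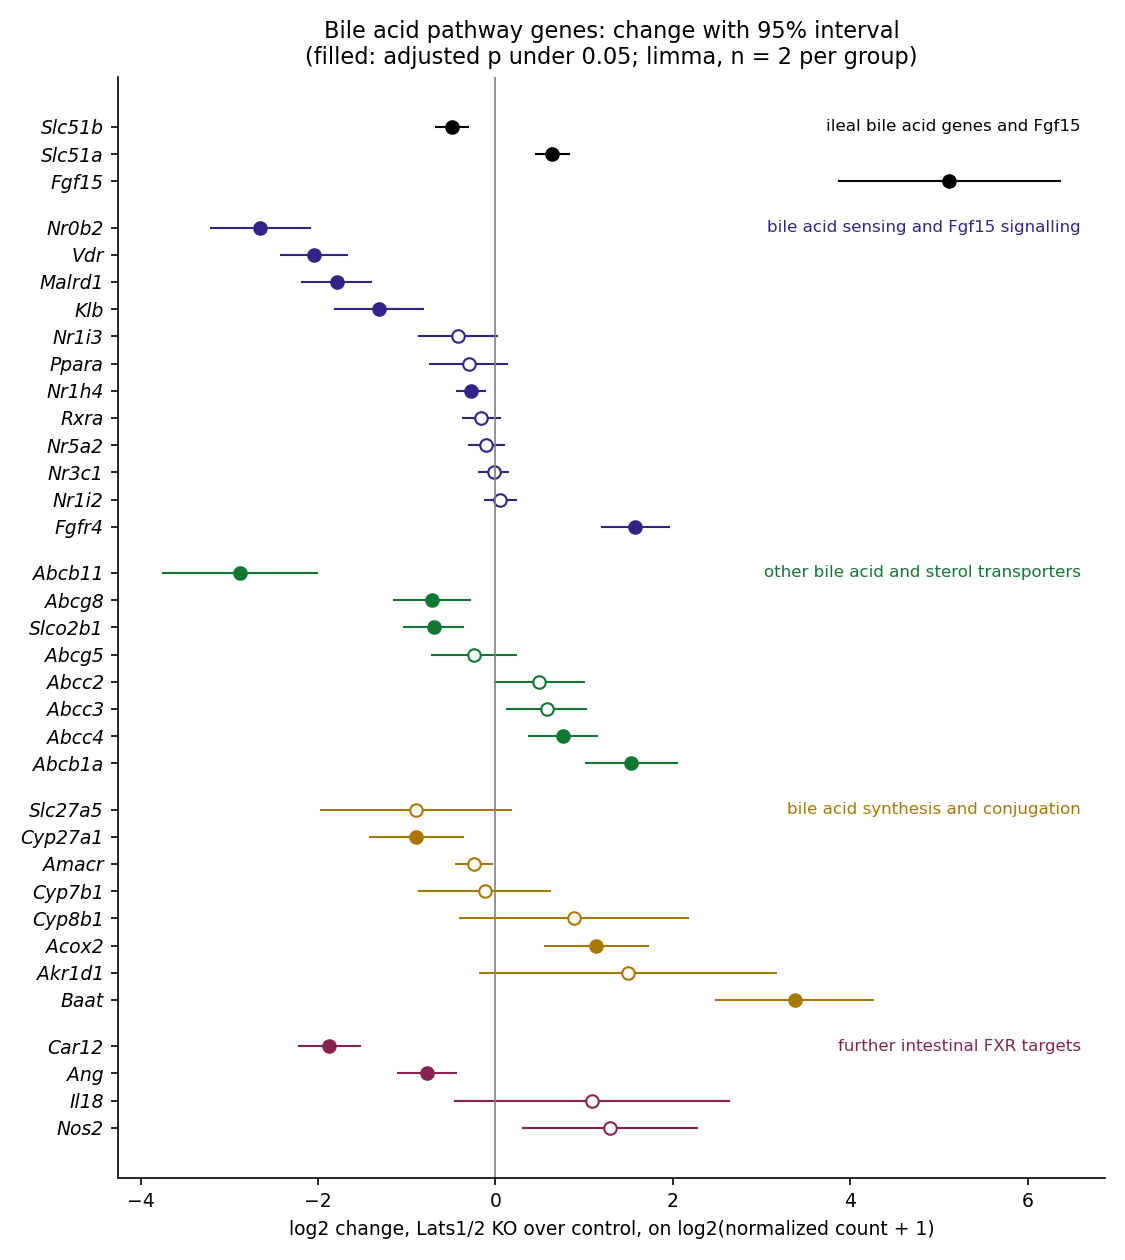
Log2 change of Lats1/2 KO over control with its 95% interval for each tested gene of the bile acid pathway, on log2(normalized count + 1); filled points have an adjusted p under 0.05 by limma and colours mark the gene lists. Nr0b2, Vdr, Malrd1, Klb, Abcb11 and Car12 lie at -1.32 or below, while Fgf15, Baat, Fgfr4 and Abcb1a lie at 1.53 or above. Fgf15 and Baat passed the filter only through the Lats1/2 KO libraries.

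Because bile acid handling belongs to the distal gut, genes of distal and proximal enterocytes of the adult were set beside it. Of 32 tested distal genes 14 (43.8%) rose and 5 (15.6%) fell, against 15.2% and 12.3% of all tested genes. Their median log2 change was 0.29. Vnn1, a pantetheinase, had 489 and 597 normalized counts in the controls and 7108 and 7010 in the knockouts (adjusted p = 0.000167, limma). Xpnpep2, a brush border aminopeptidase, and Cubn, an endocytic receptor, had log2 changes of 2.28 and 1.28. Mep1a, a brush border protease, and Aoc1, a diamine oxidase, fell by 0.94 and 1.22 on the log2 scale.

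Proximal enterocyte genes were mostly lower. Of 40 tested, 4 rose and 23 fell, against 15.2% and 12.3% of all tested genes. Their median log2 change was -0.54. Cyp3a25, a cytochrome P450, Khk, the fructose kinase, and Mme, a brush border peptidase, had log2 changes of -3.77, -1.38 and -1.27. Gsta4 and Gsta1, glutathione transferases, rose by 2.31 and 2.90. A fit without Lats1/2 KO replicate 1 called 15 lower. Whether the distal and proximal genes differ from each other was not tested.

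Regulators of gut region were mostly not called, but neither were most tested genes, of which 27.5% were called. Of 12 regulators tested, 0 rose and 3 fell, against 15.2% and 12.3% of all tested genes. Gata4, which in mice holds Slc10a2 off in the proximal gut, had 4103 and 3995 normalized counts in the controls and 4559 and 4487 in the knockouts (log2 change 0.16, adjusted p = 0.103, limma). Maf fell by 0.73 on the log2 scale (adjusted p = 0.00151, limma), from 7838 and 7912 normalized counts to 4684 and 4813. Zfpm1 and Cdx1 were also called lower, at log2 changes of -0.44 and -0.87. Zfpm1 lost its call without Lats1/2 KO replicate 1 (adjusted p = 0.0723, limma), and Cdx1 without control replicate 1 (0.0687) and with no filter (0.0702).

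**Figure D4:**
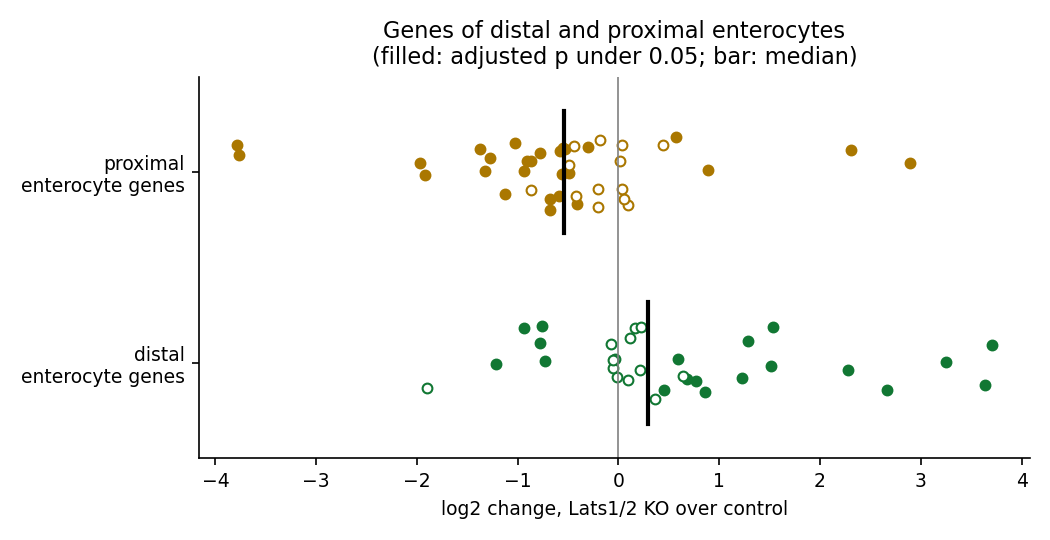
Log2 change of Lats1/2 KO over control for each tested gene of the distal (green) and proximal (brown) enterocyte lists; filled points have an adjusted p under 0.05 by limma, bars are medians and the vertical scatter has no meaning. The medians are 0.29 for the distal and -0.54 for the proximal genes.

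Markers of neighbouring tissues did not track the groups in the same way. The 7 pancreatic acinar genes summed to 13080 and 9769 normalized counts in the controls and to 2097 and 14998 in the Lats1/2 KO libraries, and 0 of 6 tested were called. The colon markers Car1, Fxyd4 and Hoxb13 had at most 3.43 normalized counts in any library, while Aqp8, a water channel of the same list, was called lower (log2 change -1.32). Stomach markers Gkn1, Gkn2 and Tff1 had at most 7.25, while Tff2 had 4317 and 2525 in the controls and 31.5 and 608 in the knockouts and was not called (adjusted p = 0.0516, limma). Leukocyte genes had 0 of 4 tested higher and 2 lower, Ptprc and Adgre1. The smooth muscle and red blood cell lists had 0 called of 5 and 4 tested. Of all tested genes, 27.5% were called. The part of these markers in the results was not tested.

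Genes most like the members were those at the smallest root mean square distance over the 4 libraries, on log2(normalized count + 1) centred per gene. For Fgf15 they were Palm3, Gcnt1 and Dpcr1, at distances of 0.231, 0.309 and 0.311. Palm3 had 3.11 and 2.29 normalized counts in the controls and 74.9 and 126 in the knockouts. For Slc51a they were Myh9, Hspbp1 and Fkbp4, at 0.00412, 0.00711 and 0.0104. For Slc51b they were Pex3, Pitpnm1 and Scp2, at 0.00473, 0.00933 and 0.0136.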

How the data were processed

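RNA-seq of whole small intestine gave 1 library per sample, 2 per group. Per the submitters' processing notes, the tools were STAR, featureCounts and DESeq2, on build GRCm38. Versions, roles, strand setting and handling of multi-mapping reads were not given in the sources used here. Per the file headers and values, the authors deposited normalized counts, a signal in which each library's gene counts were divided by a single factor. Dividing by the smallest value of a library gave whole reads for 100% of values, within 0.001 reads. For mutant over wild type the authors further deposited log2 changes, linear fold changes (ratios) and p-values adjusted for false discovery. The remaining 1 numeric column, a mark on the comparison, was not used here.

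Column names gave the group but not the replicate, so replicate numbers follow column order and serve only to name libraries. The labels do not say that samples came from separate animals, so p-values measure only the spread between these samples, which may be technical. For the test, limma-trend (limma 3.58.1, R 4.3.3) was run on log2(normalized count + 1) for 16415 genes with at least 10 normalized counts in at least 2 libraries. Benjamini-Hochberg adjustment ran over all of them, with a threshold of 0.05. Fold changes on this scale understate the change of low genes. There were 2 residual and 3.53 prior degrees of freedom. Alternatives were edgeR 4.0.16, DESeq2 1.42.0 and limma-voom on the recovered reads (edgeR's count test called 2509 genes higher and 2059 lower), other filters, pseudocounts and scalings, and leaving out each library. The fit was tested on simulated data with known changes.

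Coordinates and exon lengths came from GENCODE M21 (GRCm38), which matched all 5 genes. The genes, lists and tests were chosen with earlier results of these data known. Genes named were the 5, genes of the bile acid lists but not all of them, cell type markers and the 3 most alike genes per tested member. Of each other list, up to 4 called genes per direction by adjusted p were named. Pyy and Gcg, which were not called, were named outside this rule. Gata4, Tff2 and the genes overlapping a member were chosen after their values were seen. Cyp7a1 and Hsd3b7 were not analysed here, and 1 gene that the rule names is not reported here.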

Additional observations from a re-analysis of the deposited data

How the results depend on the processing

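Slc51a kept its direction and call in every alternative, with log2 changes from 0.56 to 0.71. Fgf15 kept its direction wherever it was tested, and its calls are descriptions, since it passed the filter only through the Lats1/2 KO libraries. Fgf15 was below the filter of 50 normalized counts and has no value there. Slc51b kept its direction, with log2 changes of -0.54 to -0.43 over the fits without 1 library, and its call in all but those without a Lats1/2 KO library. The log2 difference of the subunit ratio ran from 1.09 to 1.16. Over the fits without 1 library, genes called higher numbered 908 to 2171 and lower 864 to 1612. With no filter 1318 genes were lower, against 2017.

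Counts of list genes changed as follows. Over the fits without 1 library, other transporters called higher numbered 1 to 3 and lower 1 to 4, synthesis genes higher 1 to 2 and lower 0 to 1, further FXR targets higher 0 to 1, and proximal enterocyte genes lower 15 to 23. Distal hormones lower numbered 1 to 3, proximal hormones lower 2 to 4 and suckling-stage genes lower 2 to 4. With the filter at 50 normalized counts 1 synthesis gene was higher, and with no filter or DESeq2 0 were lower. With limma scaled by library size and with limma-voom 2 distal hormones were lower. With limma or edgeR scaled by library size and with DESeq2 1 suckling-stage gene was higher. Without control replicate 1, Abcg5 was called lower and Akr1d1 higher (adjusted p of 0.00588 and 0.0243, limma). The causes were not tested. In a fit without 1 library, the lone sample of that group is assumed to vary like the others. No paired analysis was possible because the table's columns carry no replicate numbers of the labels.

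With 2 samples per group, an exact permutation of 1 value cannot go below p = 0.333. Slc10a2 and Fabp6 rest on 13 and 5 reads in all, so depth limits what can be said of them.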

Other observations

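Among enterocyte genes that switch on at weaning, Sis, sucrase-isomaltase, and Slc2a5, the fructose transporter, fell by 1.41 and 0.94 on the log2 scale in the Lats1/2 KO samples. Treh and Arg2 passed the filter on low values only through the controls, so they had to differ, and their fits are given as descriptions. Treh, trehalase, had 66.2 and 115 normalized counts in the controls and 4.63 and 6.33 in the knockouts, a log2 change of -3.78 ± 0.37 (SE). Arg2, a mitochondrial arginase, had 20.7 and 17.1 in the controls and 3.70 and 4.52 in the knockouts, a log2 change of -1.96. Of 8 suckling-stage genes 0 rose and 4 fell, against 15.2% and 12.3% of all tested genes. Among those that fell were Nox4, an oxidase, by 1.33 and Ass1, of citrulline and arginine metabolism, by 0.74 on the log2 scale.

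Hormones of the distal gut differed in direction. Insl5, an insulin-like peptide, had 781 and 713 normalized counts in the controls and 1513 and 2147 in the knockouts, a log2 change of 1.27 ± 0.17 (SE; adjusted p = 0.00584, limma). Nts, neurotensin, fell by 1.84 on the log2 scale (adjusted p = 0.00387, limma), while Pyy, peptide YY, had 417 and 473 normalized counts in the controls and 85.1 and 250.3 in the knockouts, all lower but not called (log2 change -1.60, adjusted p = 0.0598, limma). Gcg, proglucagon, had 95.2 and 142 against 23.1 and 168, and was not called (adjusted p = 0.497, limma). Distal hormones called lower numbered 1, and 3 without Lats1/2 KO replicate 2. Of the proximal hormones, Cck, Gip, Sct and Ghrl all fell, with log2 changes from -2.11 to -1.05. Of all tested genes, 12.3% were called lower. Gip lost its call without Lats1/2 KO replicate 1 (adjusted p = 0.0544, limma), and Ghrl without control replicate 1 (0.0516) or Lats1/2 KO replicate 1 (0.0501).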
